A study of Mus musculus with 3 samples.

Results

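The genes described here are 45 genes of mitosis, those of the kinetochore, the spindle checkpoint, the mitotic kinases, the spindle motors, condensin, sister chromatid cohesion and cytokinesis, measured in mouse CD8 T cells. They were taken by symbol from the annotation of the array platform, using only probe sets that carry 1 gene symbol. All 45 were found, on 105 of the 45101 probe sets, among 18194 named genes. The probe set with the highest mean signal over the arrays stands for a gene, and 12 members have 1 probe set while the others have up to 5.

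Cells divide in mitosis by condensing their chromosomes, attaching each to spindle microtubules through a kinetochore, and pulling the copies apart before cytokinesis cuts the cell in 2. Most of the genes involved are silent in resting lymphocytes and are transcribed late in the cell cycle, so their transcripts mark dividing cells. T cells rest in the lymph node until their receptor meets antigen, after which they divide many times.

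The study compared 3 arrays, each with biotin-labelled RNA of CD8 T cells from the MLN, the lymph node of the mesentery that drains the gut. All 3 carry the CL4 T cell receptor transgene, which recognises hemagglutinin (HA) of influenza virus. The CL4-TCR array has no HA in its label, while VILLIN-HA/CL4-TCR (HA/CL4 below) and, as a separate label, Villin-HA + CL4-TCR (HA + CL4 below) join the receptor with HA under the promoter of villin, a gene of gut epithelium. The study set resting, activated and suppressive CD8 cells side by side, and the labels do not say which HA array holds the activated cells. Neither strain nor age nor a number of pooled mice is stated.

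Each group holds 1 array, so no test between conditions is possible and every difference is one between arrays. Values are MAS5 signals, a linear brightness scaled so that the trimmed mean of each array is 150.0. Signals under 31.7, the median of all values, were raised to that floor before a difference was taken. A gene counts as measured when at least 1 of the values compared lies above the floor, and it is counted as higher or lower from 2-fold upward, which is 1 on the log2 scale. A fold is written as "at least" if the smaller of the values was at or under the floor. A log2 difference from such values is likewise a lower bound on the size of the difference, also where those words are not repeated. In bulk RNA, fewer dividing cells and less RNA per cell cannot be told apart.

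The arrays differed in more than their group. The ratio of 3′ to 5′ signal of the Gapdh control, a sign of RNA or labelling quality, was 18.4 for CL4-TCR, 46.2 for HA/CL4 and 3.35 for HA + CL4. Xist, expressed in female cells, had signals of 5442.5, 2.5 and 1339 in that order, and the Y-linked Eif2s3y had 13.4, 1496 and 746.9. All 13 CD8 T cell identity genes found were above the floor on every array, and Cd8a had 2714, 2893 and 3149. Cd4 was at 9.1, 5.9 and 9.4, below the floor throughout.

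Mitosis genes were higher on both HA arrays than on the CL4-TCR array. On the HA/CL4 array 38 of the 45 members were higher and none lower, where 7.43% of all 11260 measured genes were higher and 6.63% lower. The median log2 difference of the 44 measured members was 2.30, against -0.04 over all measured genes. On the HA + CL4 array 40 were higher and none lower, against 11.9% higher and 9.53% lower of 12196 genes, with a median of 2.88 against 0.06. Scaling the arrays to the same median left the members' counts at 39 and 40, and over all genes the share of counted differences that were higher went from 55.6% to 38.2% for HA + CL4. These comparisons share the CL4-TCR array, so their values are given side by side and not as separate support. The 4 members under 2-fold on both HA arrays were Bub3, Kif23, Smc4 and Racgap1. Kif15, a plus-end motor of the spindle, lay below the floor on all 3 arrays and is not measured.

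On the CL4-TCR array, 23 members lay below the floor, among them Kif15. The other 22 of these 23 were measured through the HA arrays alone and could only differ upward. Of the 22 members above the floor on the CL4-TCR array, 18 were higher on the HA/CL4 array, where 6.32% of genes above the floor on both arrays were higher. On the HA + CL4 array 18 of the 22 were higher as well, against 9.72%. The medians of these 22 were 2.25 and 2.71 on the log2 scale, and those of all such genes were -0.05 and -0.04. The plot of signals by array shows the members below the floor as squares left of the dashed line.

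**Figure D1:**
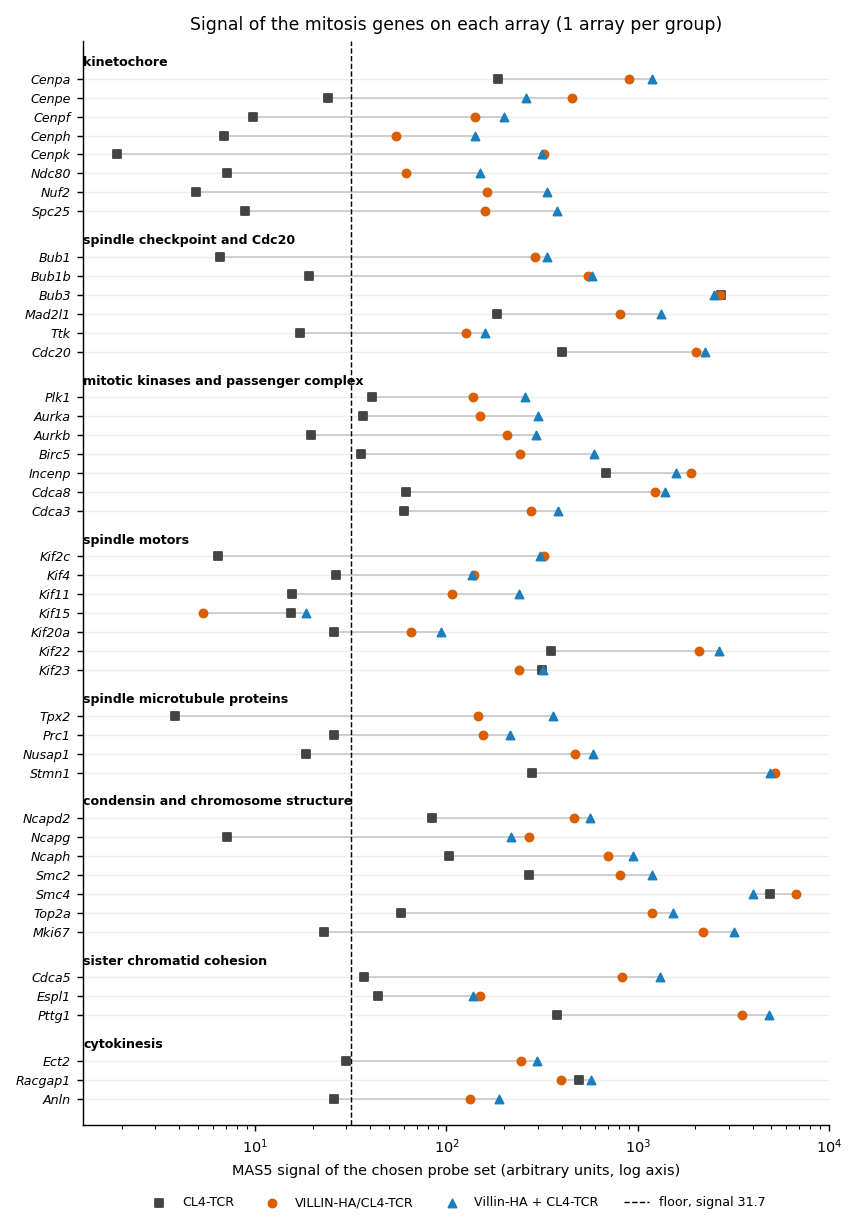
MAS5 signal of the chosen probe set of each of the 45 mitosis genes (log axis, arbitrary units), grouped by role, with 1 point for each of the 3 arrays and a dashed line at the floor of 31.7. The square of the CL4-TCR array lies left of the line for 23 genes, and the other 2 arrays lie right of it for all genes but Kif15.

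Promoters of the members share sequence features. RefSeq promoter windows of 300 bases, 250 before and 50 after the annotated start (GRCm38.p6), were found for 39 members. The cell cycle genes homology region, the element bound by MuvB, was searched as TTTGAA or TTCGAA on both strands. A match was present in 30 of the 39 genes (76.9%), against 21.7% of 27025 genes with a RefSeq window and 16.6% of 10099 such genes that were measured. Within 50 bases of the start, 27 members (69.2%) had a match, against 6.12% of all. The CCAAT box, bound by NF-Y, was present on either strand in 28 members (71.8%), against 41.1%, and 17 members had at least 2. Both were present in 1 window in 25 members (64.1%), against 8.61%. Over the members, matches of different motifs overlapped in 1 place.

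The E2F site of genes that act at the start of replication was searched as TTTCCCGC, TTTGGCGC, TTTCGCGC or TTTGCCGC on both strands. It was present in 7.69% of the members, against 2.60% of all genes. In the DNA replication list the shares were the other way round, with 47.6% of 21 genes holding the E2F site and 23.8% the homology region. The list of transport kinesins held the homology region in 13.3% of 15 genes. A match is a string of letters and not a measured binding site.

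Stretches of 9 promoters are shown, 6 as examples from different roles among the genes higher on both HA arrays and 3 of the genes under 2-fold, so that their letters can be compared. Each runs from 130 bases before to 30 bases after the start, 5′ to 3′ on the strand of the gene, in build GRCm38.p6, with matches to the homology region and the CCAAT box, or their reverse complements, in capitals. The genes higher on both HA arrays are Cenpf (chr1:189688057-189688216, minus strand), Bub1 (chr2:127831830-127831989, minus), Cdca8 (chr4:124936888-124937047, minus), Kif22 (chr7:127042391-127042550, minus), Top2a (chr11:99024160-99024319, minus) and Ect2 (chr3:27153849-27154008, minus).
Cenpf: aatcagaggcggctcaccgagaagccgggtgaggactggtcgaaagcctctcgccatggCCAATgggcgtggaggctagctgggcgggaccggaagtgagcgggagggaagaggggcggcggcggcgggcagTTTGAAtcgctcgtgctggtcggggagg
Bub1: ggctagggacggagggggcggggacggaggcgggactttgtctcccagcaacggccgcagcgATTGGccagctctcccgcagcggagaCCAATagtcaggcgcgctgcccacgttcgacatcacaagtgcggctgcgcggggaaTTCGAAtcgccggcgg
Cdca8: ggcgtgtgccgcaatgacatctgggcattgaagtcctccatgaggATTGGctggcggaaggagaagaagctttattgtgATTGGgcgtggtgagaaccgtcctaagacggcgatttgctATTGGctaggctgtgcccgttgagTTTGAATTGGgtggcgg
Kif22: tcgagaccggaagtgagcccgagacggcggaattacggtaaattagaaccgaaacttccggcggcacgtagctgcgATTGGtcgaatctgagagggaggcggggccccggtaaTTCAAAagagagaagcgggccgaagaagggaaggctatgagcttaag
Top2a: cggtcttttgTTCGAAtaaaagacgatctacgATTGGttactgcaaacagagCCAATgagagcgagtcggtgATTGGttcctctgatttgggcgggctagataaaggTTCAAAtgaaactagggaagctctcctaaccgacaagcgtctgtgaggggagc
Ect2: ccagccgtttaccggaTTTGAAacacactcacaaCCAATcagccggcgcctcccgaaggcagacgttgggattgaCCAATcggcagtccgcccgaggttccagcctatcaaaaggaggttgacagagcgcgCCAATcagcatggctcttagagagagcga

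In each of these 6 stretches at least 1 homology region and 1 CCAAT box lie within 130 bases before the start or the first 30 after it. The 6 are chosen examples and do not stand for all the higher members. Over whole windows, both motifs were present in 66.7% of the 33 members with a window that were higher on both HA arrays. Cdca8 carries 4 CCAAT boxes, 1 of which overlaps the homology region, and Top2a carries 2 homology regions and 3 CCAAT boxes. The genes under 2-fold are Bub3 (chr7:131560240-131560399, plus strand), Kif23 (chr9:61946770-61946929, minus) and Racgap1 (chr15:99651627-99651786, minus), and Smc4 had no window.
Bub3: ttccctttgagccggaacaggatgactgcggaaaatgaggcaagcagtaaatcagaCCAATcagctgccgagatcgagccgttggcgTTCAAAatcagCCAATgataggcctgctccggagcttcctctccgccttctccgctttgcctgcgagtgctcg
Kif23: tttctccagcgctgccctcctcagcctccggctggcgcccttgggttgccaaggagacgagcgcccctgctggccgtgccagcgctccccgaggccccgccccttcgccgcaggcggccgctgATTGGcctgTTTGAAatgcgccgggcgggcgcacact
Racgap1: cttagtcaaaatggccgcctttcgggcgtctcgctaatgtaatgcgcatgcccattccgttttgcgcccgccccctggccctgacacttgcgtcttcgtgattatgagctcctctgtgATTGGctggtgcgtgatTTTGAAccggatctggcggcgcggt

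These 3 promoters hold the same letters as the printed examples of genes that were higher. Each has 1 homology region in the stretch, and Bub3 has 2 CCAAT boxes, Kif23 and Racgap1 1 each. Over the whole windows, the homology region was present in these 3 and in 75.8% of the 33 members with a window that were higher on both HA arrays.

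**Figure D2:**
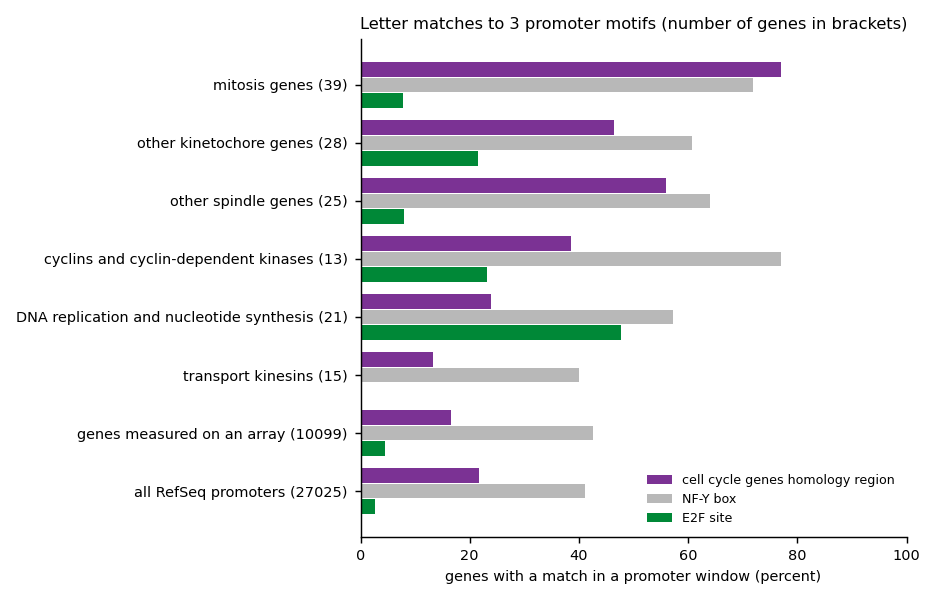
Percent of genes in each list with a letter match to the cell cycle genes homology region, the NF-Y box (CCAAT) or the E2F site in a RefSeq promoter window of 300 bases, bars starting at 0, with the number of genes in brackets. The homology region is at 76.9% in the mitosis genes and 21.7% in all RefSeq promoters, and the E2F site is at 47.6% in the DNA replication list.

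The kinetochore is built on centromeric chromatin. Cenpa, the histone H3 variant that marks the centromere, had signals of 186, 906 and 1182, in the order CL4-TCR, HA/CL4 and HA + CL4 that is kept below. It was 4.88-fold and 6.37-fold higher on the HA arrays by this probe set. Its plain probe set was higher by at least 0.40 on the log2 scale on the HA/CL4 array, a bound under 2-fold, and by at least 1.93 on the HA + CL4 array. Another, of the _x_at kind, was higher by at least 0.20 on the HA + CL4 array. Of the inner kinetochore proteins, Cenpk had 1.9, 324 and 314 and Cenph 6.9, 54.6 and 140.5. Cenpk was thus at least 10.2-fold and at least 9.91-fold higher, while Cenph was at least 4.43-fold higher on the HA + CL4 array. On the HA/CL4 array its log2 difference was at least 0.78, a bound set by the floor and too low to be counted, and 1.62 on log2(signal + 16) without the floor. The other measured probe set of Cenpk, near the floor, was higher by at least 0.57 on the HA + CL4 array.

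The outer kinetochore binds microtubules through the Ndc80 complex, of which 3 subunits are members. Ndc80 had signals of 7.1, 61.3 and 149.5, Nuf2 4.9, 162 and 337 and Spc25 8.8, 158 and 380.1. All 3 were below the floor on the CL4-TCR array and at least 4.72-fold higher on the HA + CL4 array, the smallest of these bounds being that of Ndc80. On the HA/CL4 array Nuf2 and Spc25 were at least 5.11-fold and at least 4.99-fold higher, and Ndc80 by a log2 difference of at least 0.95, a bound too low to be counted. Without the floor, on log2(signal + 16), the difference of Ndc80 was 1.74. The other measured probe set of Spc25 differed by -0.19 and 0.14 on the log2 scale. Cenpe, a kinesin that carries chromosomes to the spindle equator, had 24, 454 and 259.5, and Cenpf, a large outer protein that appears in G2 phase, had 9.7, 141 and 200.1. Both were higher on each HA array, Cenpf by at least 4.44-fold and at least 6.31-fold and Cenpe by at least 14.3-fold and at least 8.19-fold. Cenpe had its highest signal on the HA/CL4 array, unlike most members. The other measured probe set of Cenpf was at least 0.25 and at least 0.68 higher on the log2 scale, both bounds set by the floor.

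The spindle checkpoint holds the cell in metaphase until every kinetochore is attached. Bub1, a kinase that loads the checkpoint proteins, had signals of 6.5, 289.5 and 337 and was at least 9.13-fold and at least 10.6-fold higher. Bub1b, which encodes BubR1 of the inhibitory complex, had 19.2, 547 and 576, a difference of at least 17.3-fold and at least 18.2-fold. Mad2l1, the Mad2 protein that binds Cdc20, was already above the floor at 184 and reached 807 and 1318. Both HA arrays stood above the CL4-TCR array for these 3 genes. Ttk, the Mps1 kinase at the top of the checkpoint, had 17.1, 127 and 159.5, a difference of at least 4.01-fold and at least 5.03-fold. The other measured probe set of Ttk had signals of 1.8, 33.9 and 34.6. Its log2 differences of at least 0.10 and at least 0.13 are bounds set by the floor. Cdc20, the activator of the anaphase-promoting complex that the checkpoint restrains, had 400.5, 2028 and 2262 and was 5.06-fold and 5.65-fold higher.

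Bub3, the docking partner of Bub1 and BubR1, differed from the rest of the checkpoint, and its promoter stretch, printed earlier, holds both motifs. Its signals were 2728, 2686 and 2495, within a log2 difference of 0.13 between any pair of arrays. Its 4 other probe sets measured in at least 1 comparison had lower signals and ranged from -0.36 to 0.52 on the HA/CL4 array and from -1.20 to 0.65 on the HA + CL4 array. In the checkpoint group as a whole, 5 of 6 genes were higher on each HA array and none lower.

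All 7 mitotic kinase and passenger genes were higher on both HA arrays. Plk1, the kinase that drives mitotic entry and spindle assembly, had signals of 40.8, 138 and 257 and was 3.39-fold and 6.29-fold higher. Aurka, the kinase of the spindle poles, had 36.5, 150.5 and 301, a difference of 4.12-fold and 8.25-fold. For both, the HA + CL4 array had the highest signal. The chromosomal passenger complex corrects faulty attachments and consists of the kinase Aurkb, the scaffold Incenp, Birc5 (survivin) and Cdca8 (borealin). Aurkb had 19.6, 206 and 292, Birc5 35.8, 242 and 591 and Cdca8 61.6, 1239 and 1390.0. These were at least 6.51-fold, 6.75-fold and 20.1-fold higher on the HA/CL4 array, and at least 9.23-fold, 16.5-fold and 22.6-fold on the HA + CL4 array. Other probe sets of Cdca8 were at least 2.50-fold and at least 29.5-fold higher on the HA/CL4 array. On the HA + CL4 array they were at least 5.50-fold and at least 32.1-fold higher.

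Incenp differed least in this group, with signals of 679.7, 1902 and 1591 and folds of 2.80-fold and 2.34-fold. Its chosen probe set is of the _x_at kind, which may also bind other transcripts. Its other measured probe sets gave log2 differences of 0.70 and 0.93 on the HA/CL4 array, short of 2-fold, and 2.23 and 1.40 on the HA + CL4 array. Cdca3, which promotes mitotic entry by removing an inhibitor of Cdk1, had 59.7, 278 and 384 and was 4.65-fold and 6.43-fold higher.

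Of the 6 measured spindle motors, 5 were higher on each HA array. Kif11, the Eg5 motor that pushes the spindle poles apart, had signals of 15.5, 107 and 238, and its 3 measured probe sets had log2 differences of at least 0.69 to 1.95 on the HA/CL4 and 0.74 to 2.91 on the HA + CL4 array. Kif22, a motor on chromosome arms, had 354, 2094 and 2662 and was 5.91-fold and 7.52-fold higher by a probe set of the _x_at kind. Its other probe sets were higher by 1.75 and at least 0.15 on the log2 scale on the HA/CL4 array, and by 2.38 and at least 1.33 on the HA + CL4 array. The second of each pair is its only plain probe set. The call on the HA/CL4 array is thus lost with plain probe sets, where the value is a bound set by the floor. Kif4, another chromosome motor, had 26.5, 139 and 135 and was at least 4.38-fold and at least 4.26-fold higher. Kif20a, which brings the passenger complex to the midzone, had 25.7, 65.4 and 93.1 and passed 2-fold on the HA/CL4 array by a small margin (at least 2.06-fold).

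Kif2c, the depolymerase MCAK of the centromere, was at 6.4, 326 and 309 by its chosen probe set, at least 10.3-fold and at least 9.75-fold higher. The identifier of that probe set ends in _x_at, which marks probes that may also bind other transcripts. Its other 2 probe sets measured on the HA/CL4 array were at -0.81 and 0.53 on the log2 scale, so the call there rests on 1 probe set. The other 3 on the HA + CL4 array were at -0.01, 0.16 and 1.32, the last being a lower bound past 2-fold. Kif23, the motor subunit of centralspindlin, had 316, 239 and 321 and was under 2-fold in both comparisons, and its other 2 probe sets lay below the floor on all arrays.

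All 4 spindle microtubule proteins were higher on both HA arrays. Stmn1, which encodes stathmin, a protein that destabilises microtubules, had signals of 282, 5245 and 4897 and was 18.6-fold and 17.4-fold higher. Its other probe set was at least 3.53-fold and at least 5.39-fold higher. Nusap1, which bundles microtubules near chromosomes, had 18.5, 468 and 586, and Prc1, which cross-links the central spindle, had 25.9, 155 and 214. Nusap1 was at least 14.8-fold and at least 18.5-fold and Prc1 at least 4.89-fold and at least 6.75-fold higher, with the HA + CL4 array highest for both. Tpx2, the activator of Aurora A on the spindle, had 3.8, 146 and 359 by its chosen probe set, at least 4.61-fold and at least 11.3-fold higher. Of its 3 other measured probe sets, none was counted as higher on either HA array, with log2 differences after the floor from -0.18 to 0.81. The highest of these, at least 0.76 and at least 0.81, are bounds from a probe set with signals of 2, 53.8 and 55.7.

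Mki67, which coats mitotic chromosomes and is the usual marker of dividing cells, had signals of 22.8, 2197 and 3191. It was at least 69.3-fold and at least 101-fold higher, the largest bound among the members in each comparison. Top2a, the topoisomerase that untangles sister chromatids, had 57.6, 1184 and 1532 and was 20.5-fold and 26.6-fold higher. Its other measured probe set was 3.15-fold and 3.53-fold higher. Both HA arrays stood above the CL4-TCR array for Mki67 and Top2a.

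Condensin folds chromosomes for mitosis, and the 3 member subunits of condensin I were higher on both HA arrays. Ncapd2 had signals of 84.4, 465 and 563, Ncapg 7.1, 269 and 217 and Ncaph 103, 701 and 944. Their folds were 5.51-fold, at least 8.48-fold and 6.78-fold on the HA/CL4 array and 6.67-fold, at least 6.84-fold and 9.13-fold on the HA + CL4 array. The core ATPases Smc2 and Smc4, which condensin II shares, differed less. Smc2 had 269.9, 807 and 1192 and was 2.99-fold and 4.42-fold higher. Its lowest measured probe set, with signals of 3.6, 35.7 and 38.6, was at least 0.17 and at least 0.28 higher on the log2 scale, bounds set by the floor. Smc4 had 4931, 6695 and 3995 and was under 2-fold in both comparisons, as were its other 2 probe sets, with log2 differences of 0.76 and 0.91 on the HA/CL4 and 0.20 and -0.57 on the HA + CL4 array.

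Cohesion between sister chromatids is protected until anaphase, and all 3 genes of this group were higher on both HA arrays. Cdca5, which encodes sororin, the protector of cohesin, had signals of 36.9, 829 and 1302 and was 22.5-fold and 35.3-fold higher. Its other probe set was at least 4.73-fold and at least 11.6-fold higher. Pttg1, the securin that inhibits separase, had 377, 3511 and 4892, a difference of 9.32-fold and 13.0-fold. Other probe sets of Pttg1 were at least 4.18-fold and at least 7.16-fold higher on the HA/CL4 array. On the HA + CL4 array they were at least 2.69-fold and at least 17.0-fold higher. Espl1, the separase that cleaves cohesin, had 43.9, 149.6 and 137, a difference of 3.41-fold and 3.12-fold.

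In cytokinesis, 2 of the 3 genes were higher on each HA array. Ect2, the exchange factor that activates RhoA at the cell equator, had signals of 29.7, 245 and 299, and Anln, the anillin scaffold of the contractile ring, had 25.9, 133 and 188. Their folds were at least 7.73-fold and at least 4.20-fold on the HA/CL4 array and at least 9.42-fold and at least 5.93-fold on the HA + CL4 array. Racgap1, the other subunit of centralspindlin, had 495, 399 and 567 and was under 2-fold in both comparisons. Its other measured probe set had log2 differences of -0.17 and 0.86. Both subunits of centralspindlin, Kif23 and Racgap1, were therefore among the 4 members under 2-fold on each HA array by their chosen probe sets, with Bub3 and Smc4.

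The share of genes counted as higher on the HA/CL4 array ran from 2 of 3 in cytokinesis and 6 of 8 in the kinetochore to 7 of 7 for the kinases and passenger genes, in groups too small to compare. Median log2 differences on the HA/CL4 array ran from 1.94 for the 6 measured spindle motors to 3.22 for the 3 cohesion genes, with 2.30 for the kinetochore, 2.24 for the checkpoint, 2.22 for the kinases and passenger genes, 3.09 for the microtubule proteins, 2.76 for condensin and chromosome structure and 2.07 for cytokinesis. On the HA + CL4 array they ran from 2.50 for the motors to 3.81 for the microtubule proteins. These medians include lower bounds, 20 of the 38 higher genes on the HA/CL4 and 22 of the 40 on the HA + CL4 array, so their order between roles is not settled.

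**Figure D3:**
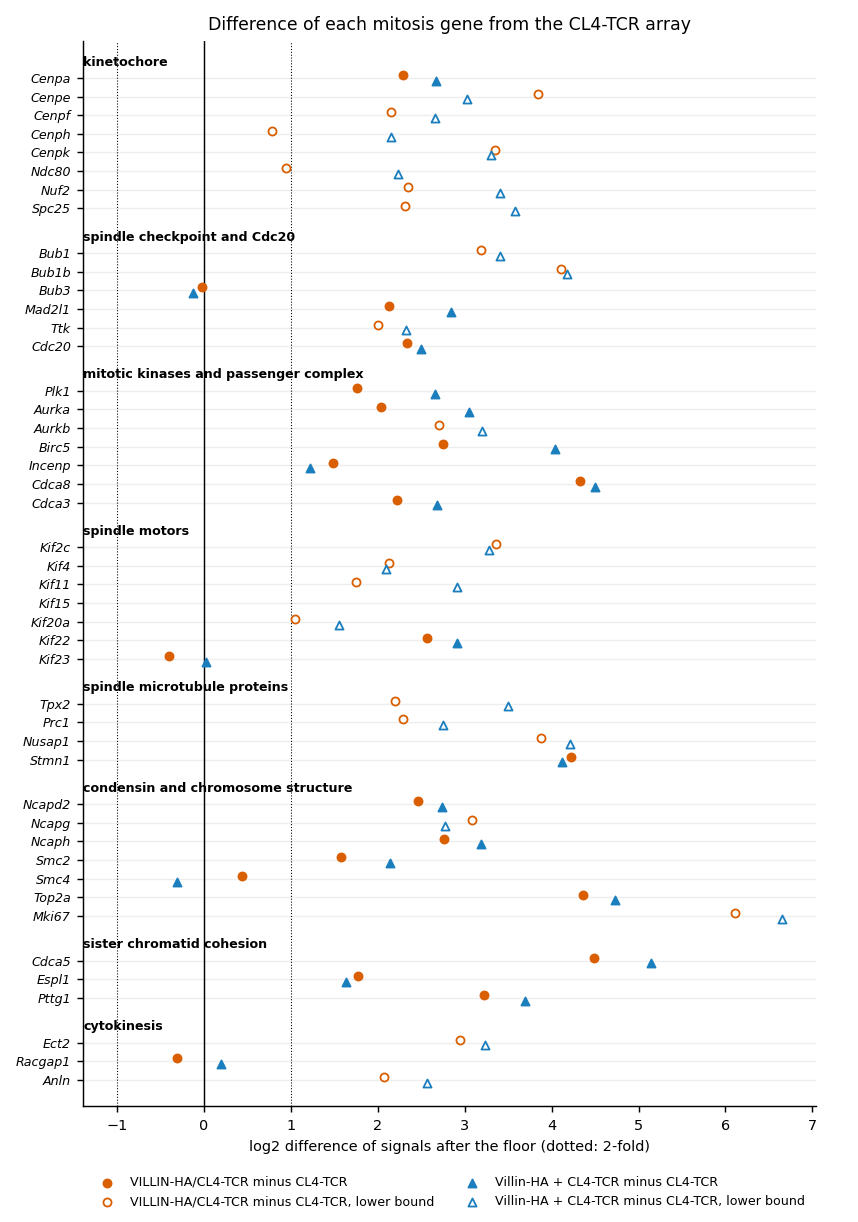
Difference of each mitosis gene from the CL4-TCR array on the log2 scale after the floor, circles for the HA/CL4 and triangles for the HA + CL4 array, with open symbols for lower bounds and dotted lines at 2-fold. Bub3, Kif23, Smc4 and Racgap1 lie within the dotted lines on both arrays, and Mki67 lies farthest to the right.

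Probe sets of 1 gene gave the only measure of error. Over all genes above the floor on both arrays, the SD between them was 0.43 on the log2 scale for the HA/CL4 comparison (4175 genes) and 0.65 for the HA + CL4 comparison (4181 genes). Among the members above the floor on both arrays it was 0.65 (10 genes) and 0.79 (11 genes). This spread covers probes on the same arrays and says nothing of the spread between animals. Among members with at least 2 measured probe sets, every measured probe set was at least 2-fold higher for 13 of 26 on the HA/CL4 array and 16 of 29 on the HA + CL4 array. Probe sets under the floor on both arrays are left out of this count. Those measured through an HA array alone could only differ upward. The share over all such genes was 2.56% and 3.36%. Of the members' measured probe sets taken singly, 57 of 84 and 65 of 89 were higher, and 0 and 1 were lower. Of all measured probe sets of named genes, 6.47% and 11.4% were higher and 6.89% and 10.4% lower. The lower probe set was one of Bub3.

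Between the HA arrays the differences were smaller, and most members had the higher signal on the HA + CL4 array. Of 44 measured members, 34 had a log2 difference below 0 for HA/CL4 minus HA + CL4, where 53.6% of 12081 measured genes did. The median was -0.43 against -0.06 over all measured genes. The SD between probe sets of 1 gene was 0.61 over all genes and 0.59 over 26 members, which describes single probe sets. The ratio of 3′ to 5′ Gapdh signal was 46.2 for HA/CL4 and 3.35 for HA + CL4. Its part in the differences between the HA arrays was not tested. At 2-fold, 8 members were lower on the HA/CL4 array, against 8.95% of all genes, and none was higher, against 6.13%. With the arrays scaled to the same median signal, the median of all genes moved to 0.19, that of the members to -0.16, and 30 of 44 members lay below 0. The count then became 4 lower and 2 higher, Cenpe and Smc4, and over all genes the share of counted differences that were higher went from 40.7% to 67.3%.

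The 8 lower members included all 3 member subunits of the Ndc80 complex. The log2 difference was -1.29 for Ndc80, -1.06 for Nuf2 and -1.26 for Spc25. The others were Cenph (-1.36), Tpx2 (-1.30), Birc5 (-1.29), Kif11 (-1.16) and Aurka, which lay just past 2-fold. Under the same-median scaling 4 of them were still lower by 2-fold, Cenph, Ndc80, Birc5 and Tpx2. The other measured probe sets of Spc25, Kif11 and Tpx2 had differences of -0.51 to 0.05, and Ndc80, Nuf2, Cenph and Birc5 have 1 probe set each. Of 29 members with at least 2 measured probe sets, none had every measured probe set 2-fold lower, against 1.7% of all such genes. In 17 of them every measured probe set lay below 0, against 26.4% of such genes.

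Other members were close on the HA arrays or went the other way. Bub1b, Cdc20, Cdca8, Kif2c, Kif4, Cenpk and Stmn1 had log2 differences between -0.17 and 0.10 by their chosen probe sets. Other probe sets of these genes reached lower, to -1.14 for Cdca8, -1.32 for Kif2c, -0.61 for Stmn1, -0.57 for Cenpk, -0.47 for Bub1b and -0.40 for Cdc20, and 1 of Kif2c was at 0.54. Cenpe (0.81) and Smc4 (0.74) had the largest differences toward the HA/CL4 array, and the 3 probe sets of Smc4 ran from 0.57 to 1.48. Mki67 and Top2a had differences of -0.54 and -0.37.

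**Figure D4:**
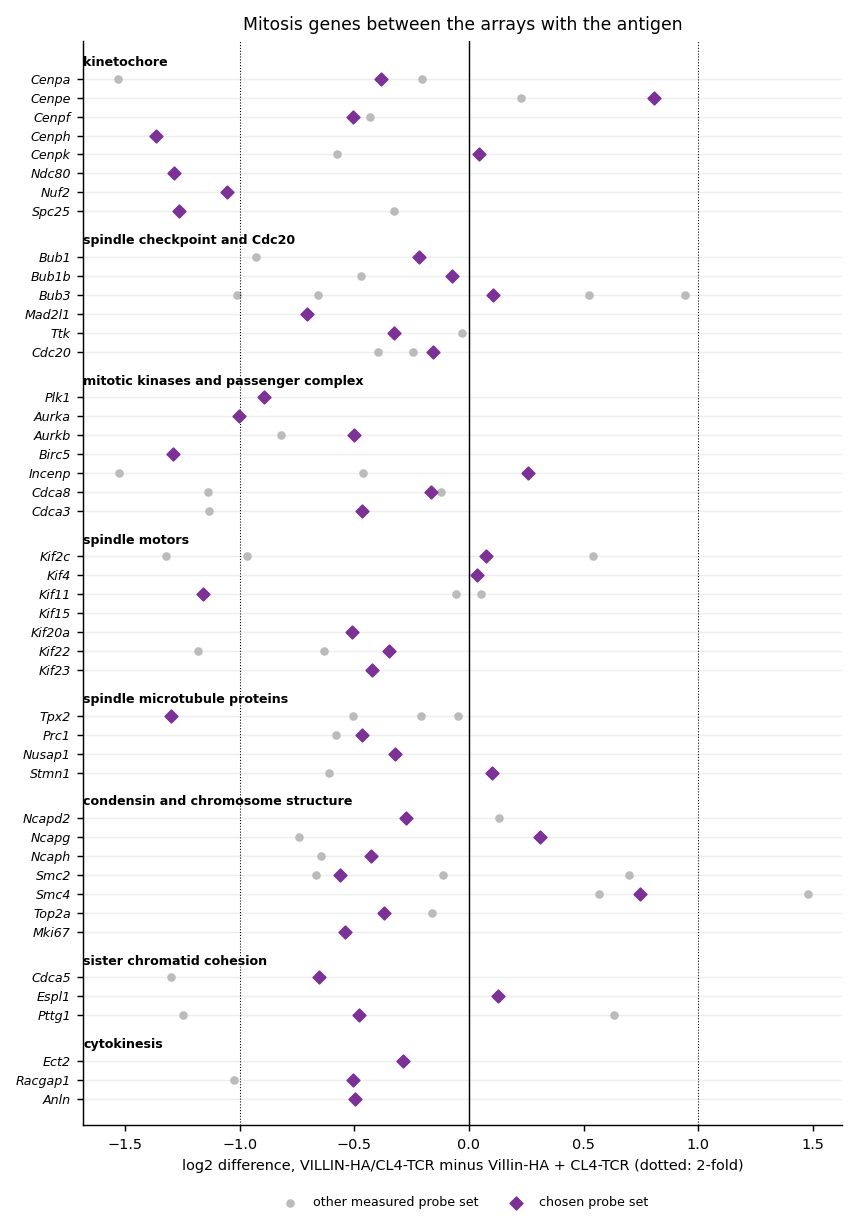
Log2 difference of signals between the HA arrays, HA/CL4 minus HA + CL4, for every measured probe set of the mitosis genes, with diamonds for chosen and grey points for other probe sets and dotted lines at 2-fold. Most diamonds lie left of 0, 8 lie beyond the left dotted line and none beyond the right.

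The rest of the mitotic machinery was set beside the members through lists of further genes. Of 30 measured other kinetochore genes, 15 were higher on the HA/CL4 array and none lower (median 1.02), and on the HA + CL4 array 17 of 31 were higher and 1 lower (median 1.19). Spc24, the fourth subunit of the Ndc80 complex, had signals of 16.9, 158 and 216. Kntc1 and Zwilch, which with Zw10 form the complex that brings dynein to kinetochores, were at least 9.46-fold and at least 7.56-fold higher on the HA/CL4 array. Of 15 other checkpoint, passenger and mitotic exit genes, 9 and 8 were higher and none lower. Trip13, the enzyme that disassembles Mad2 complexes, was 10.2-fold and 11.9-fold higher, and Sgo1, the guardian of centromeric cohesion, had signals of 8.5, 256 and 276. Other spindle genes were higher for 9 and 15 of 26 (medians 0.73 and 1.33), with Cep55, a protein of the final cut, at least 21.1-fold and at least 19.3-fold higher.

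Transport kinesins, relatives of the spindle motors, were counted as higher in neither comparison. Of 16 measured transport kinesins and their light chains, 0 were higher and 2 were lower in each comparison, with medians of -0.08 and -0.09. Over all measured genes 7.43% and 11.9% were higher and 6.63% and 9.53% lower. The list also holds Kif2a, a close relative of the member Kif2c, the depolymerase, and so not only motors of transport. Kif2a had signals of 439, 614 and 551. Kif1b, a motor of vesicles and mitochondria, had signals of 429.7, 172 and 181, and Kif21b had 2284, 1270.0 and 609. Top2b, the paralog of Top2a, had 2437, 2218 and 1653, in contrast to Top2a. It belongs to a list labelled here as paralogs outside mitosis, in which none was lower. Of these, 1 of 8 measured was higher on the HA/CL4 array, Plk4, and 2 of 10 on the HA + CL4 array, Plk3 and Plk4. Cohesin, which acts in all cells, had no gene counted among 12 on the HA/CL4 array, and on the HA + CL4 array 2 higher, Smc3 and Esco2, and 1 lower, Mau2. Of the 3 condensin II genes, Ncapg2 had signals of 21.9, 412 and 514, Ncapd3 1321, 942 and 722 and Ncaph2 592, 534 and 1338. Only Ncapg2 was counted as higher on both HA arrays.

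Mitotic genes are transcribed by the MuvB complex with the factors B-Myb (Mybl2) and FoxM1, and are repressed by MuvB with p130 in resting cells. Of 15 genes of this list, 0 were higher and 1 lower on the HA/CL4 array, and 3 were higher and 0 lower on the HA + CL4 array. The lower gene was Lin37, a subunit of MuvB, with signals of 116, 28.1 and 121, a difference of at least 3.65-fold. Foxm1 had signals of 53, 87.9 and 148 and Mybl2 had 47.3, 46.5 and 119.5, both counted as higher on the HA + CL4 array alone. The difference between the HA arrays was -0.75 for Foxm1, short of 2-fold, and -1.36 for Mybl2. DNA replication and nucleotide synthesis genes were higher for 20 and 22 of 25 (medians 1.87 and 2.02), and none was lower. Cyclins and their kinases were higher for 11 of 15 and 11 of 16 (medians 1.53 and 1.84), with 1 lower on the HA/CL4 array. Of all measured genes, 7.43% and 11.9% were higher and 6.63% and 9.53% lower. Between the HA arrays, replication genes had a median log2 difference of -0.12 and 17 of 25 below 0, beside -0.43 and 34 of 44 for the members.

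**Figure D5:**
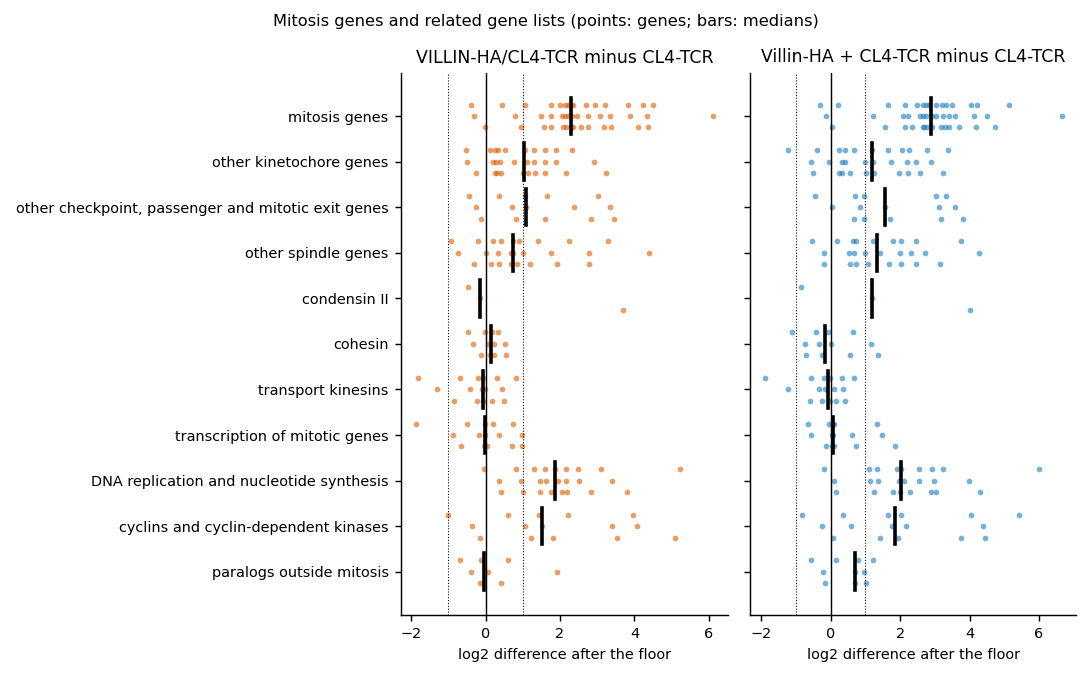
Log2 differences from the CL4-TCR array of the mitosis genes and of 10 related lists, HA/CL4 left and HA + CL4 right, with 1 point for each measured gene, a bar at the median of each list and dotted lines at 2-fold. The medians of the mitosis genes are 2.30 and 2.88, those of transport kinesins -0.08 and -0.09.

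Transcripts listed as markers of some other cell types were also higher on an HA array than on the CL4-TCR array. Their part in the differences of the mitosis genes was not tested. The summed signal of 14 myeloid and dendritic markers was 349.9 for CL4-TCR, 1698 for HA/CL4 and 2371 for HA + CL4, with 6, 9 and 11 above the floor and Itgam below it on all 3. That of 9 B cell markers found was 416, 714 and 510.2, with 6, 6 and 4 above the floor and Cd79a below it on all 3. The measured B cell markers had median log2 differences of 0.70 on the HA/CL4 array and -0.08 on the HA + CL4 array. The summed signal of 6 plasma cell markers was 1688, 2806 and 2708, of which the highest single marker made up 1521, 1695 and 2036. Irf4 had the largest log2 differences of that list, 4.16 and 2.77, beside 1.54 for Jchain on the HA/CL4 array. The sum of 5 CD4 T cell markers was 350.5, 560 and 330. On the HA/CL4 array Cxcr5 and Bcl6 differed by 1.46 and 0.73 and Zbtb7b by -0.94, with Cd4 below the floor throughout. The summed signal of 8 skeletal muscle genes was 159, 180.4 and 5439, and of 10 stromal and endothelial genes 147, 132 and 1187, so these were raised on the HA + CL4 array and not on the HA/CL4 array. Over the 45 members the summed signal was 12112, 39475 and 43766. The 8 gut epithelium genes found summed to 296, 226 and 354, with Vil1 at 4.8, 1 and 4.5. Erythroid genes, whose precursors also divide, summed to 124, 64.0 and 173 over 5 genes found.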

How the data were processed

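Total RNA of CD8 T cells (6 µg a sample, RNeasy, per the labels' protocols) was hybridised to 1 Affymetrix-type array for each of 3 groups, taken from the source names. The deposited values are MAS5 intensity values on a linear scale, per the submitters' processing notes, with no version given. Since each array is scaled to the same trimmed mean, these values cannot show a change common to most transcripts. Detection calls were not used here.

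Probe sets with 1 symbol (34958 of 45101) were named through the platform's annotation, with symbols updated by Entrez ID to the GRCm38.p6 RefSeq table for 34754. Probe sets with several symbols (932) or none (9211) were not used. With 1 array per group no p-value, SD between samples or leave-one-out value exists, and the number of arrays limits the precision. Members and gene lists were chosen with earlier results of these data known. All 45 members are named; of other lists, at most the 3 genes with the largest difference in a comparison, plus genes beside a member in a complex or family, and the markers of other cells and of sex that touch the results. Alternatives were other floors, scalings, probe set rules and folds. Of the listed genes that are not members, 14 were not found under 1 symbol. The call step was tested on simulated data with little noise, with changes placed only in genes well above the floor. That test does not cover members near the floor. Values were computed with Python 3.11.15, numpy 2.4.6 and pandas 2.3.3. Promoter sequences are from RefSeq.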

Additional observations from a re-analysis of the deposited data

Results flagged for a closer look

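Smc4, a core ATPase of condensin, was above the floor on all 3 arrays and differed from the CL4-TCR array in opposite directions on the HA arrays, by 0.44 for VILLIN-HA/CL4-TCR and, on the other side, by -0.30 for Villin-HA + CL4-TCR on the log2 scale. The difference between the HA arrays was 0.74 and was not tested, since each group holds 1 array. Neither value reached 2-fold. The opposite directions did not hold across all its probe sets: 1 of the other 2 was above 0 in both comparisons, at 0.76 and 0.20. The remaining probe set also went in opposite directions, at 0.91 and -0.57.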

How the results depend on the processing

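No paired analysis was possible because each group holds 1 array, and no replicate could be left out. No member was lower at 2-fold than on the CL4-TCR array under any alternative, and the counts on the HA + CL4 array ranged from 29 of 34 to 40. Raising the floor to the 65th percentile of the values gave member medians of 1.84 for HA/CL4 and 2.16 for HA + CL4. The median over the measured probe sets of a gene gave member medians of 1.99 and 2.23 in that order. It left 35 and 38 members higher, against 6.22% and 10.3% of all genes. With only probe sets whose identifier has no _s_at, _x_at or _a_at ending, 34 members were measured, 25 of them higher on the HA/CL4 array with a median of 1.82, and Spc25 on the HA/CL4 array (-0.19) and Kif2c on the HA + CL4 array (-0.0083) changed sign. Between the HA arrays, same-median scaling left 4 members lower and 2 higher, the median over probe sets 5 lower, plain probe sets 10 lower of 34 and 0 higher, and a fold of 3 left 0 lower. At a fold of 1.5, 11 were lower and 2 higher. The number of arrays and signals near the floor limit the small differences.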

Other observations

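Further genes beside the members differed between the HA arrays. Tacc3, which steadies spindle fibres together with clathrin, had signals of 19.7, 106 and 424 in the order CL4-TCR, HA/CL4 and HA + CL4, and a log2 difference of -2.00 for HA/CL4 minus HA + CL4. Ube2c, the ubiquitin-conjugating enzyme of the anaphase-promoting complex, had 15.2, 96.6 and 285 (-1.56), and Haus7, a subunit of augmin, had 15.3, 36.1 and 174 (-2.27). Among cyclins and their partners, Cdc25b, a phosphatase that activates Cdk1, had 162, 124 and 546 (-2.14), and Cdk6, a kinase of early G1 phase, had 405, 1096 and 512 (1.10). In the list of factors acting on mitotic promoters, E2f5 had 242, 172 and 875 (-2.35). The genes named are among those with the largest differences in their lists. Of all measured genes, 6.13% were higher and 8.95% lower at 2-fold on the HA/CL4 array than on the HA + CL4 array. Among other kinetochore genes 2 were higher, with Mis12 at 1.36, and 2 lower, and among other spindle genes 0 were higher and 5 lower. These genes have no replicate check.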
